A study of Mus musculus with 7 samples.

Results

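Transcripts of 6 chemokine receptors were followed in mouse spleen monocytes: Ccr1, Ccr7, Ccrl2, Cxcr3, Cxcr4 and Cxcr5. They were chosen by symbol as receptors of this family other than Ccr2 and Cx3cr1, with no filter on level, from 22180 genes that had a probe set with a single gene symbol. Each of the 6 had 1 probe set. Monocytes were selected from the spleens of 2 mice, had the wild-type form of EPCR, the endothelial receptor of protein C, in every group, and were profiled on 7 Affymetrix Mouse Gene 2.0 ST arrays. The unstimulated group and the HL7G group (a monoclonal antiphospholipid antibody at 400 ng/ml) held 1 array from each mouse (n = 2). The R848 group (a TLR7 agonist, 2 µg/ml), the CpG B group (a TLR9 agonist, 2.5 µM) and the poly I:C group (a synthetic RNA ligand of TLR3, 1 µg/ml) held 1 array each, from mouse 1. Treatment lasted 3 h. The labels leave out how the cells were selected, the strain and age of the mice, and how long unstimulated cells were cultured, and an IgG condition named in the protocol was not analysed here.

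Chemokine receptors are G-protein-coupled receptors that read gradients of secreted chemokines and steer migrating leukocytes. CCR7 brings dendritic cells and lymphocytes into the T cell zones of lymphoid organs along CCL19 and CCL21, and CXCR5 brings B cells into follicles along CXCL13. CXCR4 binds CXCL12 and holds cells in the bone marrow and other niches, CCR1 binds inflammatory chemokines such as CCL3 and CCL5, and CXCR3 binds the interferon-inducible CXCL9 and CXCL10 and is best known from T cells and NK cells. CCRL2 is an atypical relative that presents the attractant chemerin and is not known to signal through G proteins.

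Promoter windows are shown first for the members whose regulatory sequence could be read, and those of Ccrl2, which has a motif match, and Cxcr4, which has none, are printed. Of the 6 members 4 (Ccr1, Ccrl2, Cxcr3 and Cxcr4) were found in a table of RefSeq promoters of build GRCm38.p6, with 6 windows in all, and Ccr7 and Cxcr5 were not. The 250 bases before the start are printed 5′ to 3′ on the gene's strand, with motif matches in capitals. The Ccrl2 window is chr9:111057519-111057768 on the minus strand, the most upstream of 3 annotated starts, and the Cxcr4 window is chr1:128592300-128592549 on the minus strand.
Ccrl2: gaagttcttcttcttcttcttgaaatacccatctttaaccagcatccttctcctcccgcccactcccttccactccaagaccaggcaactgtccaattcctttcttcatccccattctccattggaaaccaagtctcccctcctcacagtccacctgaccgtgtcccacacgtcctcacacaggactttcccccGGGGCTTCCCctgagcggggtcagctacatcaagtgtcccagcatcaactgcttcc
Cxcr4: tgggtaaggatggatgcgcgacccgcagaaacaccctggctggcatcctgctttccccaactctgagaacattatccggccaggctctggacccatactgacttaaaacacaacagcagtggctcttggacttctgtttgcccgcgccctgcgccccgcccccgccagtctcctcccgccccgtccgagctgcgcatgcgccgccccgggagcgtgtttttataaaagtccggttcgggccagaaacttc
Motifs were searched on both strands in windows that also held 50 bases after the start: the NF-kB motif in its usual degenerate form, the interferon response element core (GAAA, any 2 bases, GAAA), the AP-1 site TGANTCA, the cAMP response element TGACGTCA and a PU.1 core GAGGAAGT. The capitals in the Ccrl2 window mark GGGGCTTCCC, at -56 to -47 from the start, which matched the NF-kB motif in either orientation, so these 2 matches are 1 stretch. The other 2 Ccrl2 windows and the Cxcr4 window held no match to any of the 5 motifs. Ccr1 had an NF-kB match, GGGAGGCTCC, at -74 to -65, and Cxcr3 had a PU.1 match, ACTTCCTC on its own strand, at -16 to -9. Of all 32851 windows 8.46% held the NF-kB motif, 3.44% the interferon element, 7.81% the AP-1 site, 1.79% the cAMP element and 3.2% the PU.1 core. A match describes letters in the window and does not show a site in use.

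Levels are on the log2 scale, 1 value for each probe set and array, and a gene was tested if it reached 5 on at least 1 array. Of the 6 members 5 were tested. Ccr7 and Cxcr4 were above 5 on all 7 arrays, Ccrl2 and Cxcr5 reached it on stimulated arrays alone, Cxcr3 reached it on the poly I:C array alone, and Ccr1 on none. A member that passes in this way is bound to look higher where it passed, so the members' fits were repeated on all 22180 genes with no filter. Of 16 listed monocyte genes 7 stayed under 5 on every array, among them the defining genes Ly6c2, Ccr2 and Itgam, as did 49.9% of all 22180 genes. Of the 9 tested, 7 had an HL7G difference above 0, and Cx3cr1 had the lowest at -0.82 (limma adjusted p = 0.0692). In limma 2 of the 9 rose with HL7G and none fell, beside 16.3% and 1.89% of all genes tested. Those that rose were Lyz2 (lysozyme), by 1.79 ± 0.34 (SE, adjusted p = 0.0186), and Plac8, by 1.33 ± 0.32 (adjusted p = 0.0324). That count was 0 without the unstimulated array of mouse 1, 1 without the HL7G array of mouse 1, 4 without that of mouse 2, and 1 higher and 1 lower after loess on the tested genes.

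**Figure D1:**
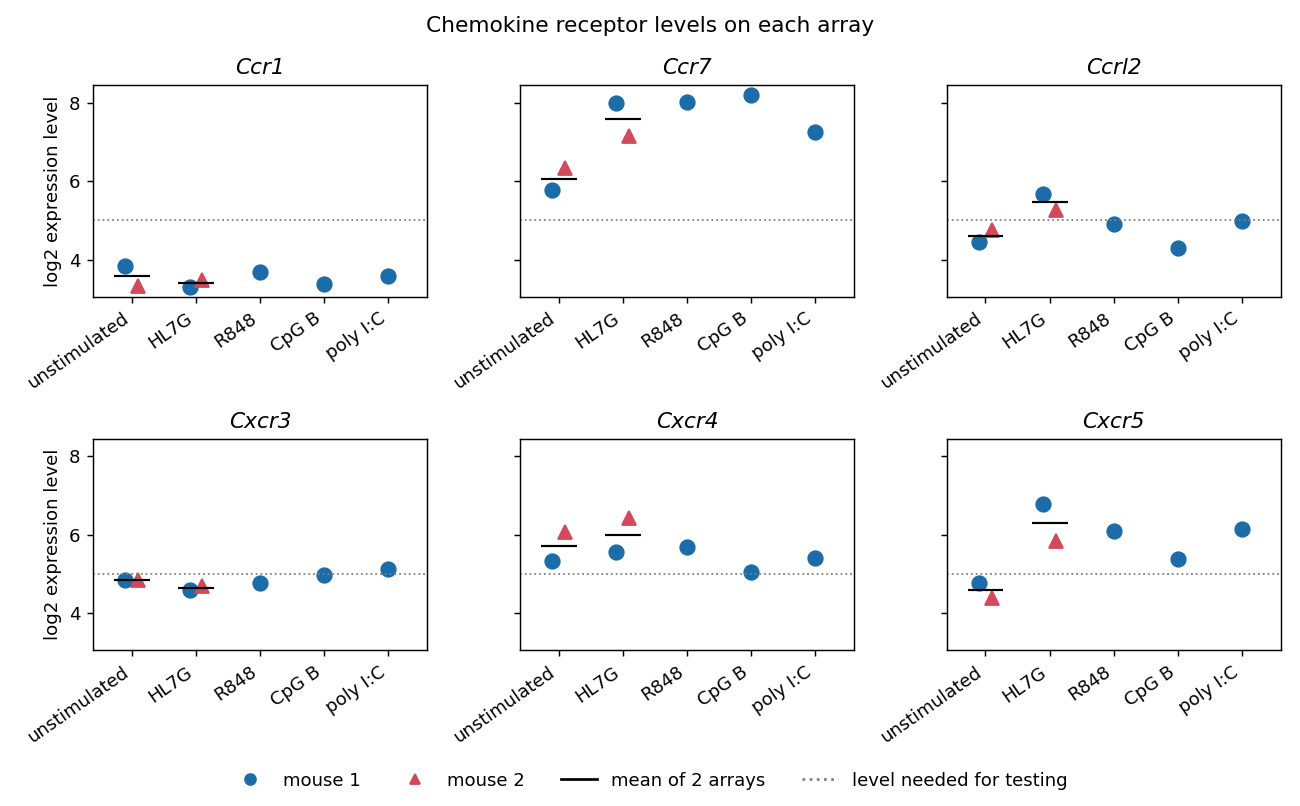
Log2 expression level of each receptor (y axis) by treatment (x axis), with a circle for each mouse 1 array, a triangle for each mouse 2 array, a bar at the mean of the 2 arrays and a dotted line at 5. Ccr7 and Cxcr5 are higher on all 5 stimulated arrays than on both unstimulated arrays, as are 27.4% of the genes tested. Ccr1 stays between 3.30 and 3.84.

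Ccr7 and Cxcr5, the receptors that guide cells to T cell zones and B cell follicles, were higher after HL7G than in unstimulated monocytes, and were also higher on the R848, CpG B and poly I:C arrays. Ccr7 rose 2.87-fold with HL7G and Cxcr5 3.30-fold. In limma, 2 of 5 tested members changed with HL7G, both higher, where 18.2% of the 11119 genes tested changed (1814 higher, 16.3%, and 210 lower, 1.89%). That split of higher and lower genes was 1372 to 625 after loess on the tested genes, 1394 to 1027 after quantile-normalizing them (the quantile step) and 1484 to 409 after median centring. With R848, CpG B and poly I:C no member passed the test, and no gene did either (0 of 11119, 0%, in each comparison), although 2550, 1370 and 1054 genes had an unadjusted p under 0.05. The comparisons with R848, CpG B and poly I:C share the unstimulated arrays with the HL7G comparison, and each rests on 1 array that was assumed to vary like the replicated groups.

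Ccr7 read 5.78 and 6.33 on the unstimulated arrays of mouse 1 and mouse 2. It read 7.99 and 7.15 on the HL7G arrays, 8.02 with R848, 8.20 with CpG B and 7.24 with poly I:C. All 5 stimulated arrays lay above both unstimulated arrays, as did those of 27.4% of the genes tested. The HL7G difference was 1.52 ± 0.34 (SE, n = 2 against 2, limma adjusted p = 0.0268), made of 2.22 in mouse 1 and 0.82 in mouse 2. With no filter on level the adjusted p was 0.0277.

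The size of the Ccr7 difference depended on scaling and on single arrays. It was 0.27 (adjusted p = 0.399) after loess on the tested genes and 0.81 (adjusted p = 0.0708) after the quantile step. The call was also lost without the unstimulated array of mouse 1 (1.24, adjusted p = 0.174) or mouse 2 (1.80, adjusted p = 0.0527) and without the HL7G array of mouse 1 (1.10, adjusted p = 0.0549), while without the HL7G array of mouse 2 it was kept (1.94, adjusted p = 0.00303).

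Against the unstimulated group Ccr7 differed by 1.97 ± 0.42 (SE) with R848, 2.15 ± 0.42 with CpG B and 1.19 ± 0.42 with poly I:C, with limma adjusted p of 0.0894, 0.207 and 0.486. Measured within mouse 1 alone the differences were 2.22 for HL7G, 2.25 for R848, 2.43 for CpG B and 1.47 for poly I:C, so HL7G and R848 differed little in that animal. After loess on the tested genes the R848 difference was 0.79, the CpG B difference 1.28 and the poly I:C difference 0.27. Ordered by group mean, CpG B was highest, then R848, HL7G, poly I:C and unstimulated. No neighbours in that order differed in the test: the steps were 0.18 ± 0.48, 0.45 ± 0.42, 0.33 ± 0.42 and 1.19 ± 0.42 (SE), with adjusted p from 0.486 to 1. For CpG B against poly I:C, the widest gap among stimulated groups at 0.96, the 95% interval ran from -0.19 to 2.10.

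Cxcr5 read 4.78 and 4.39 on the unstimulated arrays of mouse 1 and mouse 2. It read 6.77 and 5.84 on the HL7G arrays, 6.11 with R848, 5.38 with CpG B and 6.16 with poly I:C. Every stimulated array lay above both unstimulated ones, as for 27.4% of the genes tested. The HL7G difference was 1.72 ± 0.34 (SE, n = 2 against 2, limma adjusted p = 0.0197), made of 1.99 in mouse 1 and 1.45 in mouse 2, and the adjusted p was 0.0194 with no filter on level. Unlike that of Ccr7, the Cxcr5 call was kept after loess (1.45, adjusted p = 0.0200) and after the quantile step (1.38, adjusted p = 0.0113). It was lost without the unstimulated array of mouse 1 (1.92, adjusted p = 0.103) or mouse 2 (1.53, adjusted p = 0.0869).

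Cxcr5 was 1.52 ± 0.42 (SE) above unstimulated with R848, 0.80 ± 0.42 with CpG B and 1.57 ± 0.42 with poly I:C, with limma adjusted p of 0.110, 0.481 and 0.429. Within mouse 1 alone the differences were 1.99 for HL7G, 1.33 for R848, 0.60 for CpG B and 1.38 for poly I:C. CpG B thus gave the highest group mean of Ccr7 and the lowest stimulated mean of Cxcr5, and whether the genes differ in this was not tested. The order of group means was HL7G, poly I:C, R848, CpG B and unstimulated, with steps of 0.15, 0.05, 0.73 and 0.80 and adjusted p of 0.938, 1.00, 1 and 0.481. Without either HL7G array, which left the unstimulated pair as the only source of spread, Ccr7 passed the test with R848 (adjusted p = 0.00842) and CpG B (0.0129), and Cxcr5 with R848 (0.0137) and poly I:C (0.0390). Both also passed with R848 after the quantile step (Ccr7 1.47, adjusted p = 0.0491, and Cxcr5 1.37, adjusted p = 0.0480).

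**Figure D2:**
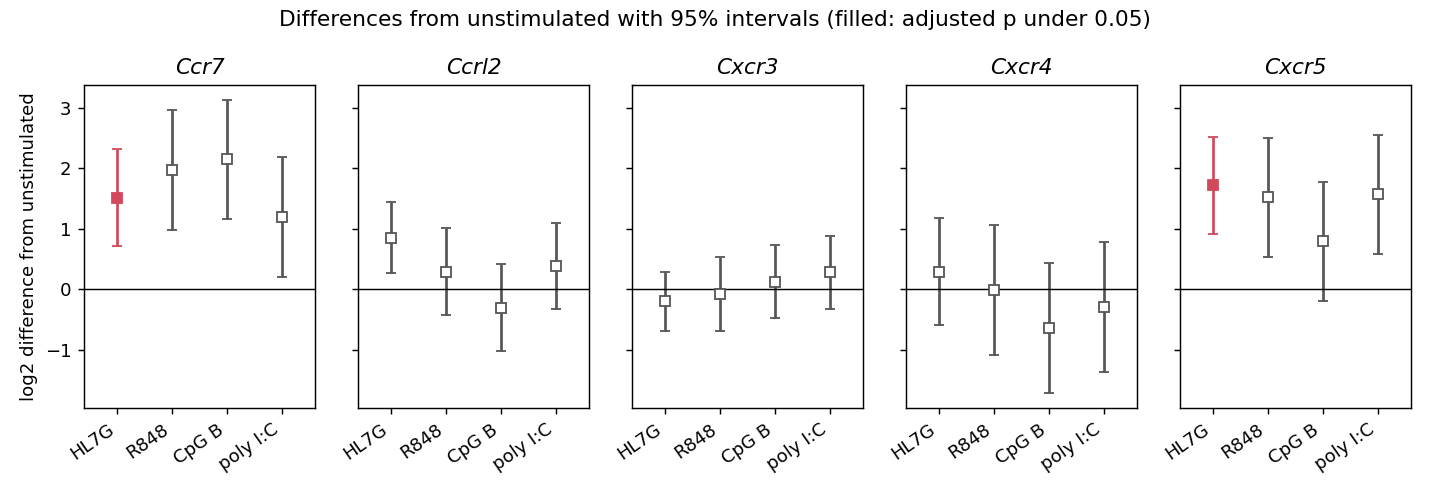
Log2 difference from the unstimulated group (y axis) for each stimulus (x axis) in the 5 tested receptors, with 95% intervals from the fit to all 7 arrays. Filled squares mark Ccr7 (1.52) and Cxcr5 (1.72) with HL7G, the calls at an adjusted p under 0.05, and open squares mark differences that did not pass.

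Ccrl2, the atypical chemerin-presenting receptor, read 4.46 and 4.77 on the unstimulated arrays of mouse 1 and mouse 2. It read 5.66 and 5.27 with HL7G, 4.90 with R848, 4.31 with CpG B and 4.99 with poly I:C. Both HL7G arrays lay above all other arrays, and the CpG B array was the lowest. HL7G arrays above both unstimulated arrays were seen for 40.6% of the genes tested, and the share above all other arrays was not counted. The HL7G difference was 0.86 ± 0.25 (SE, n = 2 against 2), 1.21 in mouse 1 and 0.50 in mouse 2, and missed the threshold (limma adjusted p = 0.0542).

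The Ccrl2 difference with HL7G passed with a variance trend (adjusted p = 0.0279), after loess on the tested genes (0.88, adjusted p = 0.0488) and without the HL7G array of mouse 2 (1.05, adjusted p = 0.0210). It missed the threshold under the other settings tried, among them the mouse as a replicate block (limma adjusted p = 0.0875) and the quantile step (0.65, adjusted p = 0.0688). With R848, CpG B and poly I:C the Ccrl2 differences were 0.29, -0.30 and 0.38, each ± 0.30 (SE), with adjusted p from 0.605 to 0.758. HL7G was 1.16 ± 0.30 above CpG B, with a 95% interval from 0.44 to 1.87. This difference did not pass after adjustment over all genes (limma adjusted p = 0.584), and in that comparison 0% of genes were called. Its order of group means was HL7G, poly I:C, R848, unstimulated and CpG B, with no neighbours called (adjusted p from 0.605 to 1.00). In the Ccrl2 promoter window printed above, the NF-kB match was the single match found.

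Cxcr4, the CXCL12 receptor, read 5.33 and 6.08 on the unstimulated arrays of mouse 1 and mouse 2. It read 5.56 and 6.44 with HL7G, 5.69 with R848, 5.06 with CpG B and 5.41 with poly I:C. Its level differed more between the mice than between unstimulated and HL7G: mouse 2 was 0.75 above mouse 1 unstimulated and 0.88 above it with HL7G. The 2 mouse 2 arrays were the highest of the 7, and the share of genes with this pattern was not counted. The HL7G difference was 0.29 ± 0.37 (SE, n = 2 against 2, limma adjusted p = 0.584), 0.23 in mouse 1 and 0.36 in mouse 2, and its 95% interval ran from -0.59 to 1.17.

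The Cxcr4 differences from unstimulated were -0.01 with R848, -0.64 with CpG B and -0.29 with poly I:C, each ± 0.46 (SE), with adjusted p of 0.989, 0.605 and 0.883. The comparison of these mouse 1 arrays with a mean over both mice includes the gap between the animals. Within mouse 1 the differences were 0.36 for R848, -0.27 for CpG B and 0.08 for poly I:C, so R848 and poly I:C changed sign there and CpG B did not. The order of group means was HL7G, unstimulated, R848, poly I:C and CpG B, with no neighbours called (adjusted p from 0.584 to 1.00).

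Cxcr3 and Ccr1, receptors of interferon-inducible and of inflammatory chemokines, stayed within a narrow span. Cxcr3 read 4.85 and 4.84 on the unstimulated arrays, 4.58 and 4.70 with HL7G, 4.76 with R848, 4.96 with CpG B and 5.12 with poly I:C. Its highest and lowest arrays were 0.54 apart. Both HL7G arrays were below both unstimulated arrays, as in 29.9% of the genes tested, and the HL7G difference was -0.20 ± 0.21 (SE, n = 2 against 2, limma adjusted p = 0.498) with a 95% interval from -0.70 to 0.29. The poly I:C difference was 0.28 ± 0.26 (adjusted p = 0.785). The order of group means was poly I:C, CpG B, unstimulated, R848 and HL7G, with no neighbours called (adjusted p from 0.884 to 1.00).

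Ccr1 read 3.84 and 3.33 on the unstimulated arrays of mouse 1 and mouse 2, 3.30 and 3.49 with HL7G, 3.68 with R848, 3.39 with CpG B and 3.59 with poly I:C. The unstimulated arrays of mouse 1 and mouse 2 enclosed the readings of 4 of the 5 stimulated arrays, and 1 HL7G array lay just under them. With no filter on level the HL7G difference was -0.19 ± 0.23 (SE, n = 2 against 2, limma adjusted p = 0.605). Levels this low limit what a difference can show.

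Ligands of the 6 receptors were taken from a fixed list of 14 chemokines and attractants, of which 11 had a probe set and 7 were tested. With HL7G 4 of 7 rose and none fell in the deposited values, where 16.3% of all genes tested rose and 1.89% fell, and the median log2 difference was 0.93 beside 0.06 over all genes tested. After loess 3 ligands were higher and 1 lower, and without the HL7G array of mouse 2 the split was 4 to 1. With no filter on level it was 4 of 11, all higher. The ligands that rose bind CCR1 or CXCR3. Ccl3 read 4.74 and 6.41 unstimulated, 8.84 and 8.77 with HL7G, and 7.58 to 7.81 with the other stimuli. Ccl5 read 6.28 and 6.71 unstimulated, 9.16 and 8.41 with HL7G and 7.42 to 7.98 with the other stimuli. Ccl9, another CCR1 ligand, rose by 0.93 ± 0.21 (SE, limma adjusted p = 0.0277). It lost its call with the mouse as a replicate block (limma adjusted p = 0.0502) and where genes needed a mean level of 6 (0.0503). The Ccl9 call was also lost after loess (0.33) and after the quantile step (0.45). Cxcl10, which binds CXCR3, read 4.44 and 4.61 unstimulated, 7.77 and 6.21 with HL7G, 6.57 with R848, 5.53 with CpG B and 6.91 with poly I:C.

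The ligands of CXCR4 and CXCR5 did not pass the test in the deposited values. With HL7G the limma differences were -0.21 ± 0.23 for Cxcl12 (SE, adjusted p = 0.537), 0.24 ± 0.24 for Mif, which also binds CXCR4 (adjusted p = 0.490), and -0.46 ± 0.32 for Cxcl13 (adjusted p = 0.334). After loess on the tested genes Mif turned to -0.94 ± 0.23 and passed as lower (adjusted p = 0.0278), and after the quantile step it was -0.62 (adjusted p = 0.0699). Without the HL7G array of mouse 2 Cxcl13 was -0.91 ± 0.25 and passed as lower (adjusted p = 0.0284). The CCR7 ligands and the chemerin gene Rarres2 were not analysed here. The ligand count was 0 without the unstimulated array of mouse 1 and 2 without that of mouse 2.

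Genes that carry the receptor signal rose in part. Of 21 listed G protein subunits, receptor kinases, arrestins and migration effectors 18 had a probe set and 17 were tested, and 8 rose and none fell with HL7G (median 0.81), beside the 16.3% and 1.89% of all genes tested. With no filter on level 8 of 18 rose. Dock2, an exchange factor that activates Rac in migrating leukocytes, rose by 2.46 ± 0.34 (SE, limma adjusted p = 0.0120), and the G protein subunit Gnb1 rose by 1.80 ± 0.30 (adjusted p = 0.0138). Cdc42, a GTPase of cell polarity, rose by 1.26 ± 0.26 (adjusted p = 0.0227), and the leukocyte GTPase Rac2 by 1.17 ± 0.24 (adjusted p = 0.0207). The count was 4 after loess on the tested genes, 0 without the unstimulated array of mouse 1 and 4 without that of mouse 2.

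Of 10 RGS genes, which switch off G protein signals, 6 were tested and 1 rose with HL7G, a share near the 16.3% of all genes tested. With no filter on level 2 of 10 rose. The tested gene was Rgs1, at 1.21 ± 0.31 (SE, limma adjusted p = 0.0373), which read 3.43 and 3.53 unstimulated and 3.93 to 5.10 on the stimulated arrays. It reached 5 on the HL7G array of mouse 1 alone, and with no filter its adjusted p was 0.0391. It did not pass with a variance trend (adjusted p = 0.140) or after the quantile step (0.77, adjusted p = 0.0991). Rgs1 lost its call without any of 3 arrays, the unstimulated array of either mouse or the HL7G array of mouse 1. Among 19 other chemokine receptors 18 had a probe set, 7 were tested and none was called with any stimulus (limma), with 2 at an unadjusted p under 0.05 for HL7G, 1 each for R848 and CpG B and 0 for poly I:C. Of these 7 the HL7G difference was above 0 for 1 (Cxcr1), with a median of -0.46.

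B cell markers, T cell markers and common transcripts averaged higher on the 5 stimulated arrays than on both unstimulated arrays. With R848, CpG B and poly I:C none of them was called in limma, and neither was any other gene. In bulk RNA, more cells of a type and more RNA per cell cannot be told apart. B cell markers, of which 11 of 12 had a probe set, averaged 4.86 and 5.10 on the unstimulated arrays, 6.17 and 6.11 with HL7G, 5.77 with R848, 5.46 with CpG B and 5.66 with poly I:C. Of 10 tested, 8 rose with HL7G and none fell (median 1.28), beside 16.3% and 1.89% of all genes tested (median 0.06). Those that rose included Ms4a1 (CD20) by 1.75, Blk by 1.65 and Fcer2a (CD23) by 1.84, and 1 marker, Cr2, stayed under 5 on every array. T cell markers averaged 5.03 and 5.16 unstimulated, at least 5.94 with HL7G, and 5.35 to 5.45 with the other stimuli. Of 10 tested, 5 rose and none fell with HL7G (median 0.85), beside the same shares of all genes tested, among them Cd3g by 2.12 and Cd3d by 1.91. CCR7 and CXCR5 are known from these lymphocytes, and the part of B and T cells in the receptor differences was not tested. The B cell count was 0 without the unstimulated array of mouse 1 and 5 without that of mouse 2, and the T cell count 0 and 2, and 3 without the HL7G array of mouse 1. With no filter on level 8 of 11 B cell markers and 5 of 11 T cell markers rose. In limma no marker passed with HL7G among the 2 tested of NK cells (median -0.53), the 3 of neutrophils (0.19), the 4 of plasmacytoid dendritic cells (0.15) and the 3 of red pulp macrophages (-0.01). At an unadjusted p under 0.05 there was 1 of NK cells, 1 of plasmacytoid dendritic cells and 0 of the others.

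Common transcripts were low on the unstimulated arrays. Over 11 such genes, among them Actb, B2m and Ptprc, the mean level was 5.53 and 6.42 unstimulated and 7.04 to 7.76 on the 5 stimulated arrays. Of 10 tested, 5 rose with HL7G and 1, Gapdh, fell, and 0 of them passed without the unstimulated array of mouse 1. Among all genes tested 16.3% rose with HL7G and 1.89% fell. The part of the low reading of common transcripts in the rises of Ccr7 and Cxcr5 was not tested. The unstimulated array of mouse 1 had the lower mean (5.53), and each difference measured within mouse 1 used it as its baseline.

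**Figure D3:**
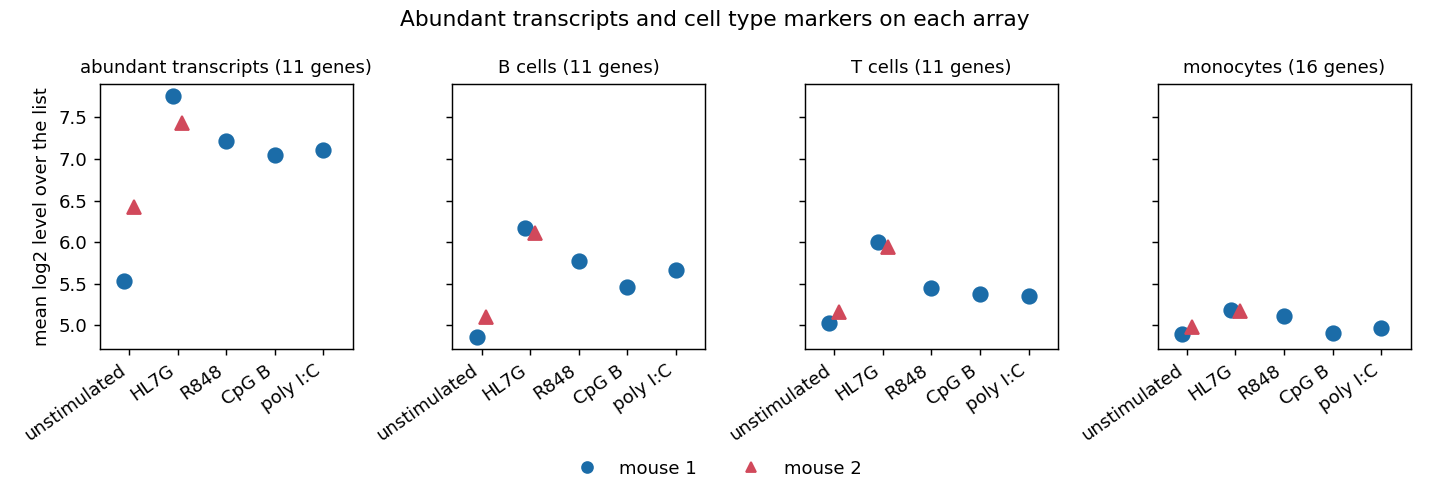
Mean log2 level (y axis) over 4 fixed gene lists on each array by treatment (x axis), with circles for mouse 1 and triangles for mouse 2. Abundant transcripts, B cell markers and T cell markers are lowest on the 2 unstimulated arrays, while the mean of the monocyte markers varies less. Of the 16 monocyte markers 7 stayed under 5 on every array, against 1 of 11 in each other list.

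The settings tried for HL7G show how the 3 largest receptor differences held. Over 12 alternatives the Ccr7 difference ran from 0.27 to 1.94 and was called in 7. Over the 11 alternatives that tested them, Cxcr5 ran from 1.26 to 2.19 and was called in 9, and Ccrl2 ran from 0.65 to 1.05 and was called in 3. All of these values were above 0, though only the 3 rescalings could have changed the sign. For each of these genes both HL7G arrays lay above both unstimulated arrays, so leaving out 1 array could not. For Ccr7 the mouse block, the variance trend, the other filters and the mean of probe sets left the difference at 1.52. These settings could move the adjusted p alone, and each kept the call. Of the rescalings, median centring kept the Ccr7 call (1.39), and loess and the quantile step did not.

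**Figure D4:**
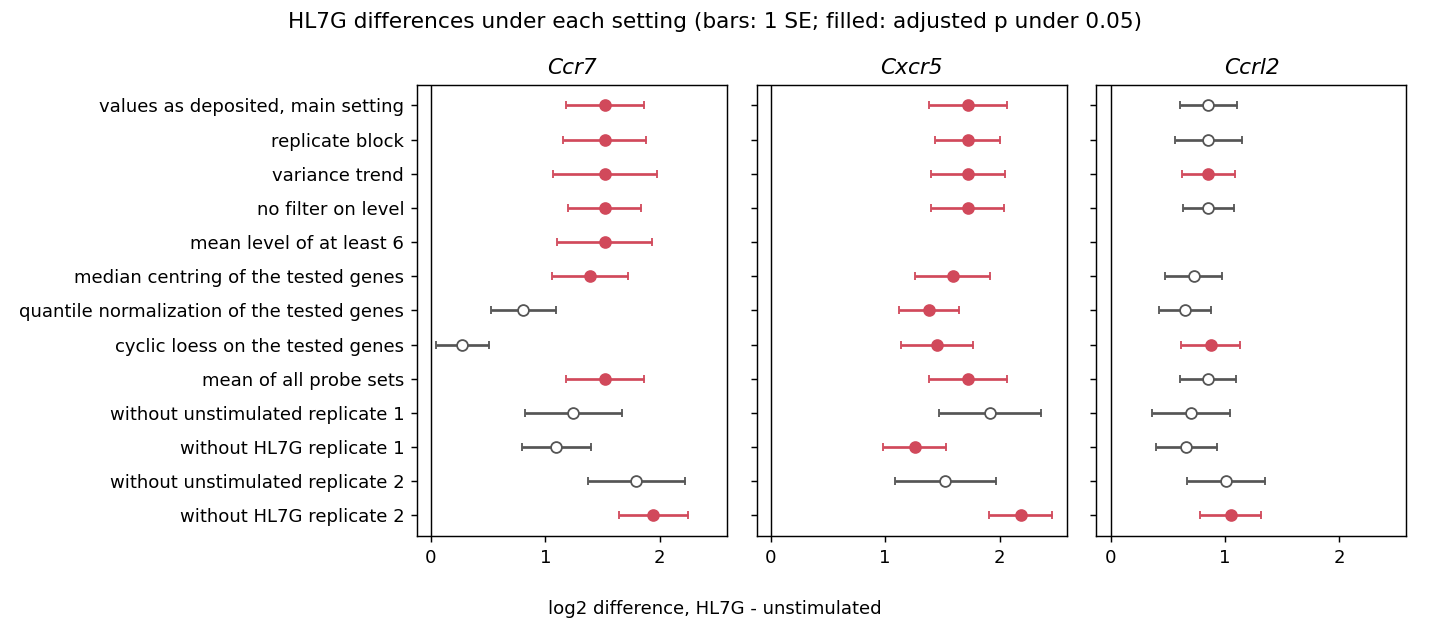
Log2 difference between HL7G and unstimulated (x axis) for Ccr7, Cxcr5 and Ccrl2 under each setting (rows), with bars of 1 SE and filled points at an adjusted p under 0.05. Ccr7 falls to 0.27 after loess on the tested genes, where Cxcr5 is at 1.45 and Ccrl2 at 0.88. Cxcr5 and Ccrl2 have no point where genes needed a mean level of 6, which they did not reach.

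The tested genes with the most similar pattern were found for each member by Pearson's r over the 7 arrays, which come from 2 mice. The top genes are a description chosen from 11119. For Ccr7 they were Mthfd1l (r = 0.993), Cnbp (r = 0.992) and Rufy3 (r = 0.989). Mthfd1l, a mitochondrial folate enzyme, read 4.68 and 5.10 unstimulated, 6.52 and 5.62 with HL7G, 6.50 with R848, 6.47 with CpG B and 5.80 with poly I:C, and so shared the wider gap of Ccr7 in mouse 1. For Cxcr5 they were Tor1aip1 (r = 0.988), the interferon-inducible Xaf1 (r = 0.986) and Hint1 (r = 0.983), and Xaf1 read 5.50 and 5.45 unstimulated against 6.34 to 7.57 on the stimulated arrays, lowest with CpG B.

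For Ccrl2 the closest genes were Mark4 (r = 0.994), Eif1b (r = 0.994) and Dhx32 (r = 0.985), and for Cxcr4 they were Acox3 (r = 0.961), Myo18a (r = 0.958) and Acbd5 (r = 0.935). Cxcr3 was closest to Smim38 (r = 0.976), Nrsn1 (r = 0.946) and Zfp750 (r = 0.937). Among the members themselves the highest values were those of Cxcr5 with Ccrl2 (r = 0.727) and with Ccr7 (r = 0.727), and Ccr7 with Ccrl2 had r = 0.291.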

How the data were processed

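The deposited table gives log2 expression levels for 41345 probe sets, with 1 column per array. RMA, Affymetrix Expression Console and Transcriptome Analysis Console are named, with no versions, per the submitters' processing notes, so background and probe summaries are as the authors left them. Array medians were 4.40 to 4.54. The number of arrays limits the precision.

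GEO's platform annotation gave a single symbol for 23521 probe sets, several for 1814 and none for 16010. Entrez identifiers of 23328 matched a RefSeq table, which changed 0 symbols. Of several probe sets of a gene the brightest on average was used. Genes reaching 5 on 1 array were tested (11119 of 22180).

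All 7 arrays entered 1 limma 3.58.1 fit (R 4.3.3) with group as the factor, 2-sided, with Benjamini-Hochberg adjustment over all genes tested and a call at an adjusted p under 0.05. The 6 pairs of stimulated groups were contrasts in the same fit. Residual degrees of freedom were 2 and prior ones 4.94. The code was tested on simulated data.

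The members were always named. From other lists the ligands and up to 4 tested genes with the largest HL7G differences were, as were the 3 genes with the highest r to each tested member. Cr2, Cxcr1, Gapdh, Ly6c2, Ccr2, Itgam, Itgax, Xcr1 and Clec10a were named after their values were seen. The members and lists were chosen with earlier results of these data known. Mouse numbers pair arrays of 1 animal, by the labels, and the deviations of mouse 2 from mouse 1 had r = -0.146 between the unstimulated and HL7G groups. P-values rest on 2 animals. The alternatives were a mouse block, a variance trend, 2 other filters, 3 rescalings, the mean of probe sets and leaving out each of 4 arrays. List counts without each array, after loess and with no filter, and the ligands and Rgs1 under each setting, were added after seeing the data.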

Additional observations from a re-analysis of the deposited data

How the results depend on the processing

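With HL7G, 2 members were called in the deposited values and 1 where genes needed a mean level of 6 (1 member tested) or after the quantile step. Leaving out 1 array gave 0 to 3 members for HL7G, 0 to 2 for R848, and 0 to 1 for CpG B and for poly I:C. With R848, 2 members were called after quantile normalization. Over all genes, 2024 were called with HL7G, 457 of 1337 at a mean level of 6, and 2 to 3295 without 1 array. Of the comparisons with 0 called, R848 had 5 with the mouse as a replicate block, 95 with a variance trend, 575 after quantile normalization and 51 after loess on the tested genes, and 0 to 1541 without 1 array. CpG B had 2 with a variance trend, 120 after quantile normalization and 2 after loess, and 0 to 530 without 1 array. Poly I:C had 2 with the block, 2 with a variance trend and 11 after quantile normalization, and 0 to 198 without 1 array. The cause was not tested, beside the fewer genes or arrays.

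Changes of sign were confined to Cxcr4 among the members' differences from unstimulated, and none was called. HL7G gave -0.0452 after quantile normalization, and from -0.148 (without the HL7G array of mouse 2) to 0.731 without 1 array, with -0.0839 without the unstimulated array of mouse 1. With the replicate block R848 gave 0.395 and poly I:C 0.116, and without 1 array they ran from -0.387 to 0.363 and from -0.667 to 0.0838, above 0 without the unstimulated array of mouse 2. The block, which pairs the arrays of a mouse, ended no call of a member and added none (Ccr7 adjusted p = 0.0284, Cxcr5 0.0107, Ccrl2 0.0875). Of 224 such values of single tested members, 197 kept direction and side of the threshold. Many of them could not change direction, as the variance trend, the other filters and the mean of probe sets left each difference unchanged. Leaving out an HL7G array likewise left the R848, CpG B and poly I:C differences unchanged. No pair of stimulated groups had a member called under any setting.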

Other observations

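Fscn1, an actin-bundling protein of mature dendritic cells, the cells best known for turning on CCR7, was among the listed dendritic cell markers. It read 5.32 and 5.30 on the unstimulated arrays of mouse 1 and mouse 2, 6.61 and 6.41 with HL7G, 6.52 with R848, 5.70 with CpG B and 5.94 with poly I:C. It rose by 1.19 ± 0.21 with HL7G (SE, limma adjusted p = 0.0163), as 1 of 4 tested markers of conventional dendritic cells. The other 3, Flt3, Zbtb46 and Cd209a, were not called, at 0.13, -0.17 and 0.87. The listed markers Itgax, Xcr1 and Clec10a stayed under 5 on every array and were not tested. Each read lower on both HL7G arrays than on both unstimulated arrays. Among the genes tested, which leave out these markers, 29.9% did so, and the share among genes under 5 was not counted. With CpG B Fscn1 was 0.38 ± 0.26 above unstimulated (limma adjusted p = 0.594), where Ccr7 had its highest reading. The part of dendritic cells in the Ccr7 differences was not tested.

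Cx3cr1, the receptor of patrolling monocytes, read 6.05 and 6.50 unstimulated, 5.64 and 5.26 with HL7G, 5.13 with R848, 5.40 with CpG B and 6.04 with poly I:C. The HL7G difference was -0.82 ± 0.26 (SE, limma adjusted p = 0.0692).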
